A study of Mus musculus with 6 samples.

Results

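The miR-183/miR-96/miR-182 cluster comprises 3 miRNA genes, Mir183, Mir96 and Mir182, each of which gives rise to a mature miRNA from the 5p arm and another from the 3p arm of its hairpin. The members were chosen by name, as mmu-miR-182-5p, mmu-miR-182-3p, mmu-miR-183-5p, mmu-miR-183-3p, mmu-miR-96-5p and mmu-miR-96-3p (the prefix for mouse is left out hereafter), and make up 6 of the 1907 mature miRNAs in the deposited count table. Small RNA was sequenced from 2 mouse embryonic stem cell (ESC) lines, RB18 and RB20, grown in 3 media termed serum, 2i and R2i, which gave 6 libraries with 1 library per line and medium. The comparisons address how the miRNAs of ESCs held in the 2 defined, ground-state media (2i and R2i) differ from those of ESCs in serum, and how the 2 defined media differ from each other.

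Both lines came from C57BL/6 mice and were derived in R2i with LIF, and cells moved from there to 2i or to serum were kept for at least 10 passages. Serum medium held 15% fetal bovine serum. The serum-free 2i medium held 1 µM PD0325901, an inhibitor of MEK, and 3 µM CHIR99021, an inhibitor of GSK3. The serum-free R2i medium held 1 µM PD0325901 and 10 µM SB431542, an inhibitor of TGF-β receptors. All 3 media held 1000 U/ml LIF. Each library was made from a pool of 3 cultures, so the spread within a medium combines the lines with the pools and the sequencing, and p-values measure this spread. In such bulk samples, fewer cells that contain a miRNA and less of it per cell cannot be told apart.

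In the mammalian genome the 3 miRNAs lie next to each other and are transcribed in 1 direction as parts of a common primary transcript. The Microprocessor complex (Drosha and DGCR8) cuts the hairpins out of this transcript, Dicer cuts each hairpin into a duplex of its arms, and usually 1 arm is kept in Argonaute as the guide while its partner is degraded. The guide finds target mRNAs mainly through its seed. The cluster is best known from sensory cells of the eye, ear and nose, where miR-96 seed mutations cause hearing loss, and it is also abundant in ESCs.

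The mature sequences, from RefSeq (GRCm38.p6, minus strand of chromosome 6), are shown 5′ to 3′ with the seed, bases 2 to 8, in capitals, since the seed guides target choice and differs by only 1 or 2 bases between the 5p arms. All 6 members matched an entry.
miR-182-5p: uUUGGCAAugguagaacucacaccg
miR-96-5p: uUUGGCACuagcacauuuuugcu
miR-183-5p: uAUGGCACugguagaauucacu
miR-182-3p: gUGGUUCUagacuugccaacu
miR-183-3p: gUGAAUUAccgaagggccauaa
miR-96-3p: cAAUCAUGuguagugccaauau

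Counted from the 5′ end, the seed of miR-96-5p differed from that of miR-182-5p by A8C alone, so that bases 2 to 7 were shared. The seed of miR-183-5p differed from that of miR-96-5p by U2A and from that of miR-182-5p by U2A and A8C. Over the whole length, aligned from the 5′ end without gaps, the closest pair was miR-182-5p and miR-183-5p, with 18 of 22 identical positions, against 12 of 23 for miR-182-5p and miR-96-5p and 13 of 22 for miR-96-5p and miR-183-5p. The 3p arms shared no seed with each other or with a 5p arm. Among RefSeq mouse miRNAs, miR-1271-5p had the same seed as miR-96-5p and was not analysed here. miR-3475-5p had the same seed as miR-96-3p, and its count was 0 in all 6 libraries.

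The hairpins show where the arms sit, with the arms in capitals and the 5p arm first.
Mir183: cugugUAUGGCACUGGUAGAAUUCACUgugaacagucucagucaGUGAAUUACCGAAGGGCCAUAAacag
Mir96: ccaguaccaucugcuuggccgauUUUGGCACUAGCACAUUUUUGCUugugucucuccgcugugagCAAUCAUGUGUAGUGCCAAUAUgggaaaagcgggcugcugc
Mir182: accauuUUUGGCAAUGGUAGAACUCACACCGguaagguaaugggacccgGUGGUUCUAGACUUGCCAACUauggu

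In the direction of transcription, Mir183 came first at chr6:30169668-30169737, Mir96 next at chr6:30169446-30169551 and Mir182 last at chr6:30165918-30165992. Mir183 and Mir96 were 116 bases apart, whereas 3453 bases separated Mir96 from Mir182. The whole cluster of 3820 bases lay within the span of Mirc35hg, a long noncoding RNA gene at chr6:30158640-30174125.

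Total miRNA counts per library ranged from 1041858 to 3593356. RB18 had fewer counts than RB20 in every medium, so that line and depth cannot be told apart. A count of 3, the level that a count of 0 allows, corresponded to 0.835 to 2.88 CPM (counts scaled by the library total), far below every member in every library. The 7 ESC markers, mostly of the miR-290 to miR-295 cluster, took 24.0% to 35.1% of the counts in serum, 32.3% to 34.6% under 2i and 33.9% to 34.8% in R2i, and 571 miRNAs passed the filter on low counts.

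The cluster was one of the largest sources of miRNA in these cells, and its share was highest in 2i. It took 9.84% of the counts in serum RB18 and 13.7% in serum RB20, 15.8% and 17.5% in 2i RB18 and RB20, and 10.6% and 13.7% in R2i RB18 and RB20. Both 2i libraries thus lay above all 4 others, whereas the serum and R2i libraries overlapped. The means were 11.8 ± 2.76% in serum, 16.6 ± 1.22% under 2i and 12.2 ± 2.14% in R2i (SD, n = 2 each). The 95% Wilson interval of each library was narrow, such as 9.79% to 9.88% in serum RB18, and covers counting error only, as for every interval of a share given here. Ground-state libraries (2i and R2i together) exceeded serum by 2.61 percentage points, with a two-sided exact permutation p of 0.4 and an adjusted p of 0.622 over 7 such tests. The smallest p this design of 4 against 2 libraries allows is 0.133, and 2 against 2 allows none below 0.333.

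**Figure D1:**
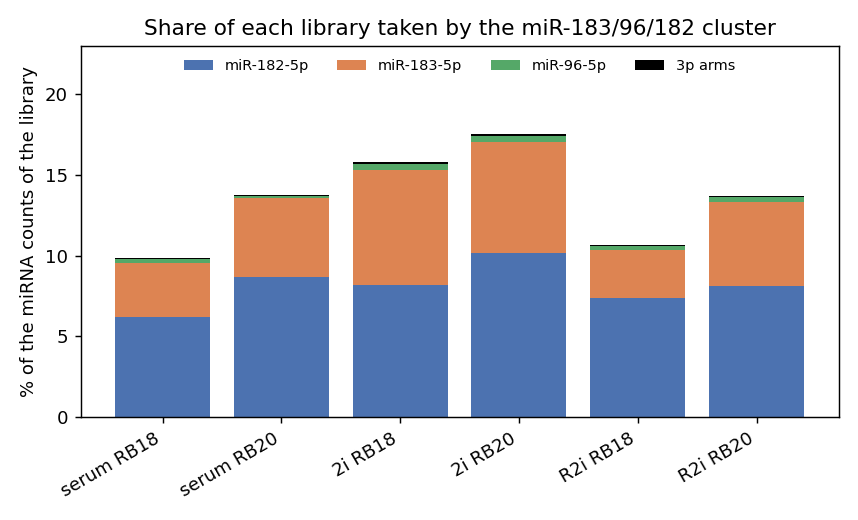
Stacked bars give the percentage of all miRNA counts in each of the 6 libraries that came from miR-182-5p, miR-183-5p, miR-96-5p and the 3p arms of the cluster together. The 2i bars, at 15.8% and 17.5%, are the tallest, and nearly all of each bar is miR-182-5p and miR-183-5p.

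For scale, the miR-290 to miR-295 cluster, the main miRNA cluster of mouse ESCs, averaged 38.5% of the counts in serum, 40.2% under 2i and 41.9% in R2i. The miR-17 to miR-92a cluster averaged 13.0 ± 4.11%, 5.17 ± 0.03% and 7.56 ± 1.12%, counting members whose names are shared with another cluster. In serum the miR-183/miR-96/miR-182 and miR-17 to miR-92a shares were alike within their spread, at 9.84% against 10.1% in RB18 and 13.7% against 15.9% in RB20. In both 2i libraries the miR-183/miR-96/miR-182 share was above the miR-17 to miR-92a share. It was 15.8% against 5.14% in RB18 and 17.5% against 5.19% in RB20. The same was so in R2i, at 10.6% against 8.35% in RB18 and 13.7% against 6.77% in RB20.

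miR-182-5p, the guide of the Mir182 hairpin, was the most abundant member and ranked 2 or 3 among all miRNAs in every library. Its normalized level, in CPM scaled by edgeR's TMM factors, was 58947 in serum RB18 and 96602 in serum RB20, 81888 and 104633 in 2i RB18 and RB20, and 65800 and 83567 in R2i RB18 and RB20. The media overlapped, and RB20 was the higher line in each of them. The means were 77775 ± 26626 CPM in serum, 93260 ± 16083 under 2i and 74684 ± 12563 in R2i (SD, n = 2). Within a line, 2i was above R2i by 0.32 on the log2 scale in both RB18 and RB20, and above serum by 0.47 in RB18 and 0.12 in RB20. The ratio of its highest to its lowest library, 1.78, was the smallest of the 6 members.

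miR-183-5p, the guide of the first hairpin, ranked between 3 and 6. It had 32160 CPM in serum RB18, 54612 in serum RB20, 71016 in 2i RB18, 70267 in 2i RB20, 26837 in R2i RB18 and 53294 in R2i RB20. The 2i libraries were close together and above the others, while serum and R2i overlapped and had RB20 well above RB18. The means were 43386 ± 15876, 70641 ± 530 and 40065 ± 18707 CPM in serum, 2i and R2i.

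miR-96-5p, the guide linked to hearing, was far less abundant and ranked between 31 and 76. Its levels were 2335 and 1216 CPM in serum RB18 and RB20, 3837 and 3965 CPM under 2i, and 1952 and 2941 CPM in R2i. Again both 2i libraries were above all others, an order whose share over all tested miRNAs was not computed. Here, however, serum RB20 was the lowest library of all, in contrast to the other 5p arms, for which serum RB20 was above serum RB18. The means were 1775 ± 791 CPM in serum, 3901 ± 90.7 under 2i and 2446 ± 700 in R2i.

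The 3p arms, which are the usual partner or passenger strands, were present between 49.1 and 802 CPM. miR-183-3p was the most abundant of them, with 376 and 285 CPM in serum RB18 and RB20, 779 and 802 CPM under 2i, and 394 and 447 CPM in R2i. This was the only member for which no pair of media overlapped, with 2i highest, R2i next and serum lowest. How many of all tested miRNAs separated the media in this way was not computed. miR-182-3p had 79.9 and 49.1 CPM in serum, 164 and 157 CPM under 2i, and 57.5 and 109 CPM in R2i, again with both 2i libraries above the rest and with overlap of serum and R2i. miR-96-3p had 54.2 and 59.0 CPM in serum, 104 and 106 CPM under 2i, and 50.6 and 68.1 CPM in R2i, with the same order. Counts behind these levels were between 59 and 514 for miR-182-3p and miR-96-3p and between 459 and 2627 for miR-183-3p.

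**Figure D2:**
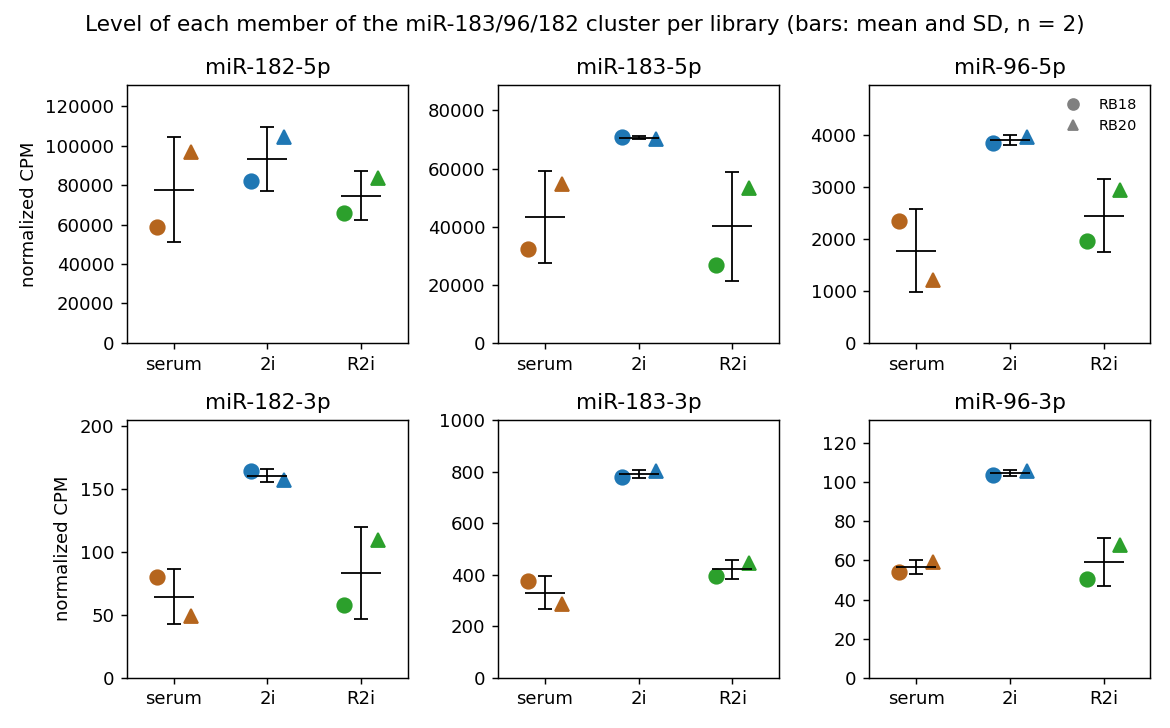
Points give the normalized CPM of each member in each library, by medium, with circles for RB18 and triangles for RB20, and bars give the mean and SD (n = 2). The 2 lines nearly coincide in 2i for all members except miR-182-5p, at 81888 and 104633 CPM. Both 2i points lie above all others for every member except miR-182-5p. Both 2i libraries were above both serum libraries for 39.2% of the tested miRNAs, and above both R2i libraries for 29.9%. The share above all others was not computed.

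The order of levels among members was thus miR-182-5p, miR-183-5p, miR-96-5p and miR-183-3p in all 6 libraries. It continued with miR-182-3p and miR-96-3p, which changed places in serum RB20, where miR-182-3p had 49.1 and miR-96-3p 59.0 CPM. Mature miRNAs are of nearly equal length, so that levels were compared without a length correction. How well each sequence is captured in a library also sets its count, and this was not tested.

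When 2i was compared with serum, miR-183-3p rose, and it was the only one of the 6 members past the criterion of an adjusted p under 0.01 and more than a 2-fold change. Its log2 fold change was 1.26 (SE 0.25, edgeR adjusted p = 0.00382), which corresponds to a ratio of means of 2.40, and it was higher in 2i in both RB18 (1.05) and RB20 (1.5). Of all 571 miRNAs tested, 34.2% passed the same criterion in this contrast, 96 higher and 99 lower in 2i, so 1 of 6 members is not more than the tested miRNAs in general. The call rested on all 4 libraries of these media but serum RB18. Without serum RB20 the log2 fold change was 1.02 with an edgeR adjusted p of 0.0109, without 2i RB18 it was 1.31 with 0.0141, and without 2i RB20 it was 1.27 with 0.0249.

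The other members gave positive differences that did not pass. The log2 fold change of miR-182-3p was 1.32 (SE 0.37, edgeR adjusted p = 0.0188), that of miR-96-5p was 1.14 (SE 0.35, adjusted p = 0.0292) and that of miR-96-3p was 0.88 (SE 0.24, adjusted p = 0.0174). The abundant guides had smaller differences and intervals that included 0. For miR-182-5p the log2 fold change was 0.26, with a 95% interval from -0.43 to 0.95 (edgeR adjusted p = 0.499). For miR-183-5p it was 0.70, from -0.17 to 1.58 (edgeR adjusted p = 0.153), so that neither a rise of more than 2-fold nor no change lies outside its interval.

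At an unadjusted p under 0.05 in edgeR, 4 of the 6 members were higher in 2i. Beside them, 57.6% of the tested miRNAs had such a p in either direction, 163 higher and 166 lower in 2i. All 6 log2 fold changes of 2i against serum were positive, with a median of 1.01, beside a median of -0.03 over all 571 miRNAs. The direction was the same in both lines for each member, between 0.47 and 1.14 in RB18 and between 0.12 and 1.71 in RB20. The share of all tested miRNAs with the same direction in both lines was not computed. For 5 members, all except miR-182-5p, both 2i libraries were above both serum libraries, as was so for 39.2% of the tested miRNAs. With DESeq2 in place of edgeR 3 members passed, miR-182-3p with an adjusted p of 0.00277 and miR-96-5p with 0.00565 besides miR-183-3p. The value of miR-96-5p rested on which serum library was kept. Without serum RB18 it passed in edgeR, with a log2 fold change of 1.79 and an adjusted p of 0.00346, whereas without serum RB20 it was 0.69 with an adjusted p of 0.0779.

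R2i against serum gave no call among the members, while 30.6% of the tested miRNAs passed in this contrast. None of the 6 had an unadjusted p under 0.05 in edgeR, which 49.6% of the tested miRNAs had, and none passed in DESeq2 or limma. The log2 fold changes were between -0.11 for miR-183-5p (95% interval -0.99 to 0.76, edgeR adjusted p = 0.844) and 0.46 for miR-96-5p (-0.35 to 1.28, adjusted p = 0.337). The latter was 1.11 without serum RB18 (edgeR adjusted p = 0.0229) and 0.01 without serum RB20 (adjusted p = 0.978). That of miR-183-3p was 0.35 (-0.22 to 0.92, edgeR adjusted p = 0.299). The intervals of miR-182-3p and miR-96-5p still include a rise of more than 2-fold. The median over the members was 0.22, beside -0.07 over all tested miRNAs, and both R2i libraries were above both serum libraries for miR-183-3p only, against 32.4% of all tested. For miR-182-5p, at -0.06, the sign turned to 0.04 with DESeq2 or TMM factors computed without the members and to 0.06 with library totals.

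The comparison of 2i with R2i, which differ in whether GSK3 or the TGF-β receptors are inhibited beside MEK, shares the 2i libraries with the first comparison and the R2i libraries with the second. No member passed in edgeR, DESeq2 or limma, nor did most other miRNAs, with 0.350% of the 571 past the criterion. All 6 members had higher levels in 2i. In edgeR 3 of them had an unadjusted p under 0.05, beside 18.2% of the tested miRNAs in either direction, 43 higher and 61 lower. These 3 were the 3p arms, with log2 fold changes of 0.91 for miR-183-3p (95% interval 0.34 to 1.48, edgeR adjusted p = 0.15), 0.92 for miR-182-3p (0.08 to 1.76, adjusted p = 0.235) and 0.80 for miR-96-3p (0.24 to 1.36, adjusted p = 0.163). For the guides they were 0.32 for miR-182-5p, 0.82 for miR-183-5p and 0.67 for miR-96-5p, with intervals that included 0. These values moved with the R2i library kept. Without R2i RB18 and without R2i RB20, respectively, they were 0.19 and 0.52 for miR-182-5p, 0.44 and 1.41 for miR-183-5p, 0.44 and 1.02 for miR-96-5p and 0.59 and 1.497 for miR-182-3p. Without 2i RB20, miR-182-5p was at 0.14. Both 2i libraries were above both R2i libraries for 5 members, all except miR-182-5p, as was so for 29.9% of all tested. The median of the members was 0.81, beside 0.01 over all tested.

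**Figure D3:**
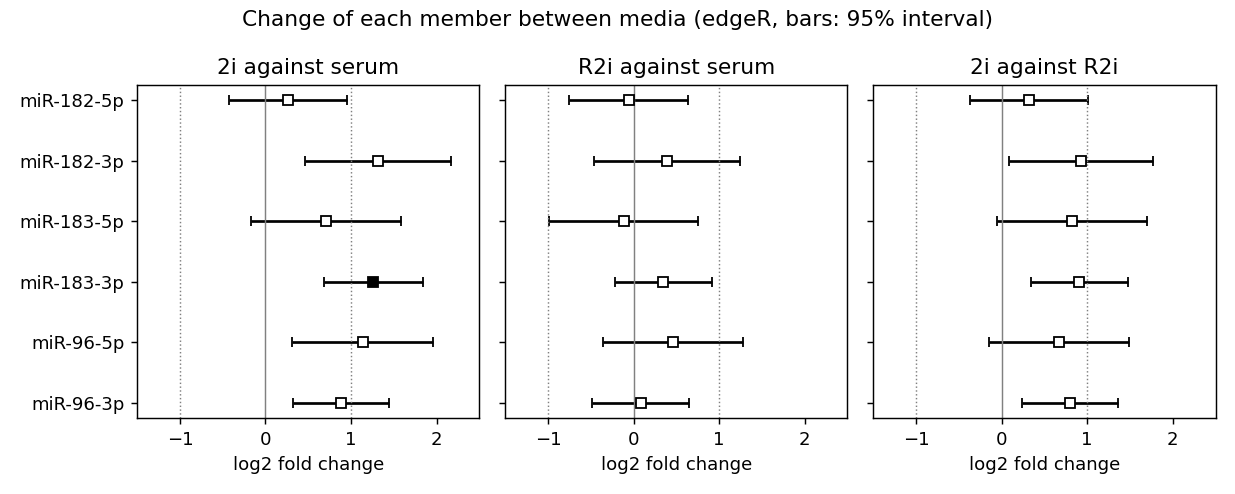
Squares give the edgeR log2 fold change of each member in the 3 comparisons of media and bars the 95% interval, with dotted lines at a 2-fold change and a filled square where the criterion was passed. Only miR-183-3p in 2i against serum is filled, at 1.26, and all 6 squares of 2i against serum and of 2i against R2i are to the right of 0.

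For the mean of 2i and R2i against serum, 37.0% of the tested miRNAs and none of the members passed in edgeR, DESeq2 or limma. miR-183-3p came closest at 0.81 (SE 0.22, edgeR adjusted p = 0.0166). In edgeR 3 members had an unadjusted p under 0.05, all higher in the ground state. Beside them, 57.6% of the tested miRNAs had such a p in either direction, 158 higher and 171 lower. This mean averages 2i and R2i, in which the members had unlike differences from serum, with medians of 1.01 and 0.22. Without serum RB18, 2 members passed in edgeR, miR-183-3p at 1.13 (adjusted p = 0.00621) and miR-96-5p at 1.45 (adjusted p = 0.00589). Without serum RB20 they were at 0.57 (edgeR adjusted p = 0.0598) and 0.35 (adjusted p = 0.277).

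Between the lines, with medium in the model, no miRNA passed, a share of 0.00%, and 36 of 571 (6.30%) had an unadjusted p under 0.05 in edgeR. Among these were miR-182-5p, higher in RB20 by a log2 fold change of 0.47 (adjusted p = 0.647), and miR-183-5p, by 0.58 (adjusted p = 0.741). No member passed in DESeq2 or limma either. The remaining members had log2 fold changes between -0.10 and 0.19. Whether the lines differed by medium was not tested. In 2i the log2 difference of RB20 from RB18 was 0.35 for miR-182-5p and between -0.07 and 0.05 for the other 5 members. In R2i RB20 was higher for all 6, from 0.18 for miR-183-3p to 0.99 for miR-183-5p. The share of all tested miRNAs that were higher in RB20 in R2i was not computed.

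In serum the lines parted the cluster. Both abundant guides, miR-182-5p and miR-183-5p, differed in favour of RB20 by 0.71 and 0.76 on the log2 scale. In the same pair of libraries miR-96-5p differed by -0.94, miR-182-3p by -0.70 and miR-183-3p by -0.40, all lower in RB20, whereas miR-96-3p differed by 0.12. With 1 library per line and medium these differences have no replicate. The serum RB20 library also had the lowest summed share of the miR-290 to miR-295 cluster, 33.5% against 39.2% to 43.5% in the other 5 libraries, and its part in the differences was not tested.

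The relation between the 3 guides was therefore uneven across libraries. miR-183-5p stood at 54.6% and 56.5% of miR-182-5p in serum RB18 and RB20, at 86.7% and 67.2% under 2i, and at 40.8% and 63.8% in R2i. miR-96-5p stood at 3.96% of miR-182-5p in serum RB18 but at 1.26% in serum RB20, beside 4.69% and 3.79% under 2i and 2.97% and 3.52% in R2i. Relative to miR-183-5p, miR-96-5p was at 2.23% in serum RB20 and between 5.40% and 7.27% in the other 5 libraries. The 3 log2 ratios differed between the ground-state and serum libraries by 0.17, 0.72 and 0.56, with exact permutation p of 0.667, 0.533 and 0.533. With 4 against 2 libraries this test allows no p below 0.133, so it cannot decide whether the ratios differ. Without serum RB20 the last 2 differences turned to -0.10 and -0.30.

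Over the 6 libraries, on log2(CPM + 1), miR-182-5p and miR-183-5p correlated with r = 0.84. miR-96-5p was closer to the 3p arms of the other hairpins, with r = 0.97 to miR-182-3p and 0.93 to miR-183-3p, than to miR-182-5p (0.15) or miR-183-5p (0.48). miR-182-5p and its own partner arm correlated with r = 0.33. These values describe 6 libraries that share lines, media and depth.

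On each hairpin the 5p arm outnumbered the 3p arm in every library, from 20.6-fold for miR-96 in serum RB20 to 1968-fold for miR-182 in the same library. The 3p arm took 0.135% and 0.0508% of the miR-182 counts in serum RB18 and RB20, 0.200% and 0.150% under 2i, and 0.0873% and 0.131% in R2i. The 2i libraries had the highest shares, but the interval of 2i RB20, 0.137% to 0.163%, overlapped those of serum RB18 and R2i RB20. The serum RB20 interval, 0.0417% to 0.0618%, lay below those of all other libraries. For miR-183 the 3p share was 1.15% and 0.518% in serum, 1.09% and 1.13% under 2i, and 1.45% and 0.832% in R2i. Serum RB20 was again the lowest. For miR-96 the share was 4.63% in serum RB20, with an interval of 3.88% to 5.51%, and between 2.26% and 2.63% in the other 5 libraries, so that here serum RB20 was the highest.

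**Figure D4:**
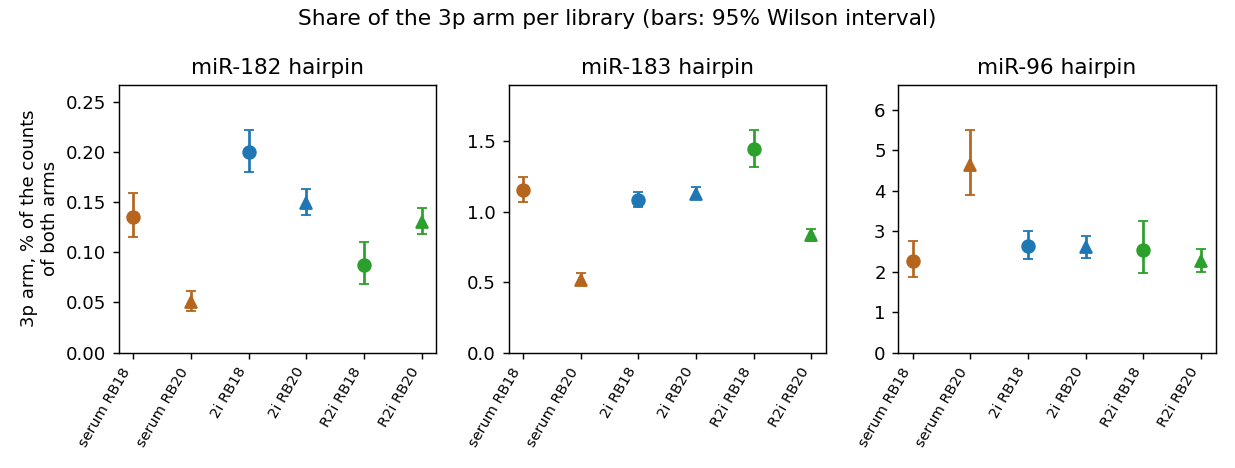
Points give the 3p arm as a percentage of the counts of both arms of a hairpin in each library, and bars the 95% Wilson interval, which covers counting error only. Serum RB20 is the lowest point for miR-182 and miR-183 and the highest for miR-96. The 2i points are the highest for miR-182, where the bar of 2i RB20 overlaps those of serum RB18 and R2i RB20.

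The log2 ratio of 5p to 3p counts, in which normalization cancels, differed between ground-state and serum libraries by -0.71 for miR-182, -0.51 for miR-183 and 0.39 for miR-96, with exact permutation p of 0.4, 0.533 and 0.533. Each of these differences rested on the serum RB20 library. Without it they were -0.0056 for miR-182, 0.07 for miR-183 and -0.14 for miR-96, and without serum RB18 they were -1.42, -1.10 and 0.92. In a limma fit over the 121 hairpins with enough counts on both arms, the log2 ratio of miR-182 in 2i against serum differed by -1.06 (SE 0.41, limma adjusted p = 0.322), which did not pass. In that contrast 1 of the 121 passed an adjusted p under 0.05 and 17 had an unadjusted p under 0.05. miR-183 gave -0.52 and miR-96 0.33, with limma adjusted p of 0.522 and 0.655. Summed over all libraries, the minor arm of miR-182 took 0.131% of its hairpin, the 3rd lowest share of the 121 hairpins. That of miR-183 took 0.975% and that of miR-96 2.60%, beside a median of 8.93% over all 121.

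Markers listed as neural and sensory were low and as a sum highest in serum. Whether they stand for the sensory cells in which the cluster is best known was not tested. The 8 markers, among them miR-124-3p, miR-128-3p and miR-9-5p, summed to 0.696% to 0.825% of the counts in serum. Their sum was 0.554% to 0.559% under 2i and 0.409% to 0.496% in R2i. Single markers did not all go with the sum. In 2i against serum the edgeR log2 fold change was -0.28 for miR-124-3p and 0.11 for miR-128-3p, neither called. The other markers of this list are not given singly here, so which of them carry the sum is not shown. The 3 muscle markers took at most 0.00831% of a library, the 3 endoderm markers 0.139% to 0.230% and the 4 blood markers 0.0405% to 0.0975%, with miR-223-3p at 0 in all libraries. The 3 mesenchymal markers were, like the cluster share, highest in 2i, at 0.145% to 0.173% in serum, 0.317% to 0.338% under 2i and 0.222% to 0.244% in R2i, and their part in the result was not tested.

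No other tested miRNA from an annotated gene within 2 Mb of the cluster passed the criterion. Of 8 such genes in GENCODE M21, 4 had mature miRNAs in the count table, and 6 of their 8 mature forms were tested. None of the 6 passed in edgeR in 2i against serum, R2i against serum or 2i against R2i, where 34.2%, 30.6% and 0.350% of all tested did. The nearest of these 4, Mir335, 571562 bases away in an imprinted region, had log2 fold changes in 2i against serum of -1.16 for miR-335-5p (edgeR adjusted p = 0.0522) and -1.69 for miR-335-3p (adjusted p = 0.0111), opposite in sign to the members. Mir29a and Mir29b-1, on the same strand as the cluster, had 0.29 for miR-29a-3p (edgeR adjusted p = 0.348) and 0.56 for miR-29b-3p (adjusted p = 0.167). From Mir129-1, miR-129-1-3p had -0.35 (edgeR adjusted p = 0.738) and miR-129-5p had -1.0 (adjusted p = 0.108). miR-29b-3p and miR-129-5p are each also made from a gene elsewhere, Mir29b-2 and Mir129-2, so their values cannot be assigned to the copy near the cluster.

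The tested miRNAs whose levels over the 6 libraries were most like those of a guide differed from guide to guide. For miR-182-5p they were miR-210-3p (r = 0.96), the miRNA known for its induction by hypoxia, miR-30d-5p (0.90) and miR-140-3p (0.89). For miR-183-5p they were miR-191-3p (r = 0.96), miR-879-5p (0.96) and miR-331-3p (0.95). For miR-96-5p they were miR-138-5p, miR-582-5p and miR-542-5p, each with r = 0.98. The same 3 came out for each guide from the deposited log2 values. Each is the top of a ranking of all tested miRNAs over only 6 libraries that share lines, media and depth, and some levels were low, such as 1.98 to 14.1 CPM for miR-542-5p.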

How the data were processed

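Small RNA libraries of ESCs in serum, 2i and R2i were analysed for the lines RB18 and RB20, as labelled in the sample titles. For 1907 mature miRNAs the authors deposited unnormalized whole-number counts, and for the 1233 they detected also log2 values. Each log2 value matched log2 of 1 plus the count over a size factor for its library to within 0.005. The submitters' processing notes name FastQC 0.11.5, cutadapt 1.3, Bowtie 1.1.2, featureCounts 1.5 and mm10, and the study removed adaptors and short or long reads before alignment. How reads that fit several miRNAs were counted is not given in the sources used here. No column of values was left unused (0).

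Counts were fitted in R 4.3.3 by the quasi-likelihood test of edgeR 4.0.16 (TMM, filterByExpr at 10 counts and 15 in total, 1 coefficient per medium over all 6 libraries, or medium and line for the lines). Calls needed more than a 2-fold change and an adjusted p (Benjamini-Hochberg, over all 571 tested) under 0.01. The common biological coefficient of variation was 24.6%. SEs were obtained as the log2 fold change over the root of F, and 95% intervals from the SEs. The edgeR fit and the limma fit over hairpins were each tested on simulated data, whereas the shares, ratios and correlations were not. Shares and ratios were compared by two-sided exact permutation tests over libraries, adjusted over 7. The limma 3.58.1 fit over hairpins was chosen after the data were seen. Sequences are from RefSeq (1623 of 1907 names matched).

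The members and lists were chosen with earlier results of these data known. Named were the members, miRNAs sharing a member's seed, those of genes within 2 Mb, the 3 most correlated with each 5p arm, and the shares of 2 other clusters. The lines pair the libraries by design. Their RB20 minus RB18 differences correlated over 571 miRNAs with r = 0.21 (serum and 2i), 0.25 (2i and R2i) and -0.13 (serum and R2i). The study merged the lines, so the main model had no line term for media. Alternatives were DESeq2 1.42.0, limma on the deposited log2 values, library totals, TMM without the members, no filter on low counts, an adjusted p under 0.05 with no fold limit, the line as a block, only the media compared, another denominator for shares, and leaving out each library. Tables and plots used matplotlib 3.10.9, scipy 1.17.1, numpy 2.4.6 and pandas 2.3.3 under Python 3.11.15.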

Additional observations from a re-analysis of the deposited data

Results flagged for a closer look

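In R2i against serum, 4 of the 6 members moved one way in RB18 and the opposite way in RB20. How often this was so among all tested miRNAs was not computed. The log2 changes of miR-182-3p, -0.48 for RB18 and 1.15 for RB20, lay 1.63 apart, and those of miR-96-5p, -0.26 and 1.27, lay 1.53 apart. Those of miR-96-3p, -0.10 and 0.21, lay 0.31 apart. For miR-182-5p RB18 was the higher, at 0.16 against -0.21, so that RB20 minus RB18 was -0.37. With 1 library per line and medium, the difference between the lines was not tested. The 2i change from serum had the same sign in both lines for all 6 members, and this share over all tested miRNAs was not computed either.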

How the results depend on the processing

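Members called in 2i against serum numbered 1, and 3 with DESeq2 or with no filter on low counts, 4 at an adjusted p under 0.05 with no fold limit, 1 with a block for the line, and 0 to 2 when 1 library was left out. In the mean of 2i and R2i against serum, 0 members were called, 1 at an adjusted p under 0.05 with no fold limit, and 0 to 2 with 1 library left out. The counts of 0 for R2i against serum, 2i against R2i and RB20 against RB18 held under every alternative run. The block on the line changed no call of a member. In 2i against R2i it left 0 miRNAs called over all tested, beside 2 without it, 12 with DESeq2 and 25 with no filter. Neither that block, which is its own term, nor a fit to only the media compared was run for the line contrast.

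Of 402 alternative log2 fold changes, 366 kept their direction and call, 3 lost and 11 gained the call, and 22 turned sign. All 22 were uncalled values; the cause was not tested. For R2i against serum, library totals moved the median of all miRNAs by 0.11, and miR-182-5p, at -0.06, became 0.0391 with DESeq2, 0.0603 with totals, 0.0448 with TMM without the members, 0.04 with limma and 0.101 with only the media compared, while miR-183-5p became 0.0427 with the last. For RB20 against RB18, totals moved the median by -0.15, and miR-182-3p, at 0.05, became -0.0145 with DESeq2, -0.102 with totals and -0.0121 with TMM without the members.

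Leaving out 1 library in R2i against serum gave -0.27 to 0.29 for miR-182-5p, -0.69 to 0.32 for miR-183-5p, -0.16 to 0.89 for miR-182-3p, 0.01 to 1.11 for miR-96-5p and -0.16 to 0.27 for miR-96-3p. It gave -0.10 to 0.45 for miR-182-5p in the ground state against serum. In RB20 against RB18 it gave -0.43 to 0.36 for miR-182-3p, -0.24 to 0.0739 for miR-183-3p and -0.51 to 0.28 for miR-96-5p. The ground-state minus serum log2 ratios of 5p to 3p ranged from -1.42 to -0.0056 for miR-182, from -1.10 to 0.0678 for miR-183 and from -0.14 to 0.92 for miR-96. Those of miR-96-5p ranged from -0.10 to 1.55 to miR-182-5p and from -0.30 to 1.41 to miR-183-5p. As a share of the counts outside the miR-290 to miR-295 cluster, the cluster took 19.03% in serum, 27.8% in 2i and 20.9% in R2i.

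Each medium had only 2 libraries, and the smallest count of a member was 59. The part of depth in the spread was not tested. The lines differ in depth in every medium, and each library is 1 pool of cultures.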
